A study of Mus musculus with 16 samples.

Results

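Sod1, Bach1, Cbr1 and Cbr3 are redox genes that lie in the chromosome 16 segment triplicated in Dp16 mice, and Hmox1, Nqo1, Gclc, Gclm, Sod2 and Cat are antioxidant genes on other chromosomes. The 10 genes were taken by symbol from the deposited table of 55385 genes, and 10 of 10 were found and passed the filter on low counts. Their expression was measured by poly-A RNA-seq of brain cortex at 9 months in 16 mice. There were 4 wild-type C57BL/6J mice, 4 Dp16 mice, 4 5xFAD mice and 4 mice with both genotypes (5xFAD-Dp16), with 2 females and 2 males in each group. Dp16 mice, a model of Down syndrome, carry a duplicated stretch of chromosome 16 with many counterparts of human chromosome 21 genes, which gives 3 copies of each gene there in place of 2. 5xFAD mice carry transgenes that include a mutant human APP, a gene altered in familial Alzheimer's disease, expressed in neurons under the Thy1 promoter, and develop plaques of amyloid. The labels give neither litters nor the background strain of the 3 mutant groups. The p-values of group differences set them against the spread between these libraries. Any differences of litter or strain cannot be told apart from genotype.

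SOD1 is the copper and zinc superoxide dismutase of the cytosol, which turns superoxide into hydrogen peroxide. SOD2 does the same in mitochondria, and catalase, encoded by Cat, breaks hydrogen peroxide down in peroxisomes. BACH1 is a heme-binding repressor that competes with the activator NRF2, encoded by Nfe2l2, for antioxidant response elements. Known targets of these elements include Hmox1, which encodes heme oxygenase 1, the quinone reductase gene Nqo1, and Gclc and Gclm, which encode the catalytic and the modifier subunit of the enzyme that limits glutathione synthesis. CBR1 and CBR3 are carbonyl reductases that reduce aldehydes, ketones and quinones. Because SOD1 makes peroxide and BACH1 represses antioxidant genes, the extra copies of these genes have long been discussed in Down syndrome.

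The stretches of 250 bases before the start of Sod1, Bach1, Gclm and Nqo1 are printed here. Sod1 and Gclm are shown because they hold an antioxidant response element core, and the repressor gene Bach1 and the known target Nqo1 are shown beside them. RefSeq promoter windows on GRCm38.p6, which run from 250 bases before to 50 after a gene's start, were available for 8 of the 10 genes. Capitals mark the antioxidant response element core (TGACNNNGC, where N is any base), the TATA box (TATAAA) and the GC box (GGGCGG), on either strand.
Sod1, chr16:90220512-90220761, plus strand: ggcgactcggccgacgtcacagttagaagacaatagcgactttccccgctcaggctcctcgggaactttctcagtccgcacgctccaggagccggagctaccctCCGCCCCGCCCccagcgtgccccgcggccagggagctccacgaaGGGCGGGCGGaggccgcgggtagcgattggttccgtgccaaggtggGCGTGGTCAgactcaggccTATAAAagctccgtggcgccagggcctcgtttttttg
Bach1, chr16:87698704-87698953, plus strand: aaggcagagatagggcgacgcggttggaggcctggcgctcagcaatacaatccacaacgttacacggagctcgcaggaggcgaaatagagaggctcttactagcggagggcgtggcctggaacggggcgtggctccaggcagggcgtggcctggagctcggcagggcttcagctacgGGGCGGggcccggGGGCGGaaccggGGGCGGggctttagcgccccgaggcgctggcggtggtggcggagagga
Gclm, chr3:122245307-122245556, plus strand: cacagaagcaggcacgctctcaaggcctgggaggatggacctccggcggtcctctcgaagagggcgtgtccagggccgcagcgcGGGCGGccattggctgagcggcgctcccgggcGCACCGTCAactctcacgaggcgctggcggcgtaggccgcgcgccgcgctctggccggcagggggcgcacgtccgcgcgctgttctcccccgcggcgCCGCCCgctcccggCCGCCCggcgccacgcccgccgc
Nqo1, chr8:107403206-107403455, minus strand: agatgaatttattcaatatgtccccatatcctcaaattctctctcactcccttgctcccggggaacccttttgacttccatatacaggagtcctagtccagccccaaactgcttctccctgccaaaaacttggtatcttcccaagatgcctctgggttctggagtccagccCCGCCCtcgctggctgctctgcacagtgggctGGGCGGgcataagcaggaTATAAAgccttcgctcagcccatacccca
The antioxidant response element core was found in 2 of the 8 windows, both times on the reverse strand, 134 bases before the start of Gclm and 56 bases before the start of Sod1. It stands in 12.39% of all 32851 windows of that length, so its presence in Sod1 and Gclm is a match of letters and no more. The longer TRE-type Maf recognition element, searched on both strands, was in 0.16% of all windows and in none of the 8. A TATA box stood in the windows of Sod1 and Nqo1 and in 13.62% of all windows, and a GC box stood in 7 of the 8 windows and in 35.66% of all. The CCAAT box, searched on both strands and not marked, stood in 5 of the 8 windows and in 37.41% of all. Distal elements were outside the windows.

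Hmox1 was the one gene of the 10 that passed the test over all genes. It was higher in the mice with the amyloid transgenes, by 0.70 ± 0.15 on the log2 scale, or 1.62-fold. Sod1, Cbr1 and Cbr3 stood 1.41, 1.49 and 1.63-fold higher with Dp16, near the ratio of gene copies, but none of them passed the test. Bach1 stood 1.21-fold higher with Dp16, while Hmox1, Nqo1, Gclc, Gclm, Sod2 and Cat stood within 0.11 of 0 on the log2 scale. Levels below are CPM, counts scaled to library size and normalized for library composition by the TMM method, in the order of replicates 1 to 4. Levels compared between genes are RPKM, which also divides by gene length. Log2 fold changes are given ± SE from edgeR's quasi-likelihood test over 17555 genes, and a gene was called where its Benjamini-Hochberg adjusted p was under 0.05. The duplication was tested as the 8 Dp16-carrying against the 8 other libraries, and the transgenes as the 8 transgenic against the 8 other libraries, each as the mean of 2 comparisons between groups, with sex as a covariate.

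**Figure D1:**
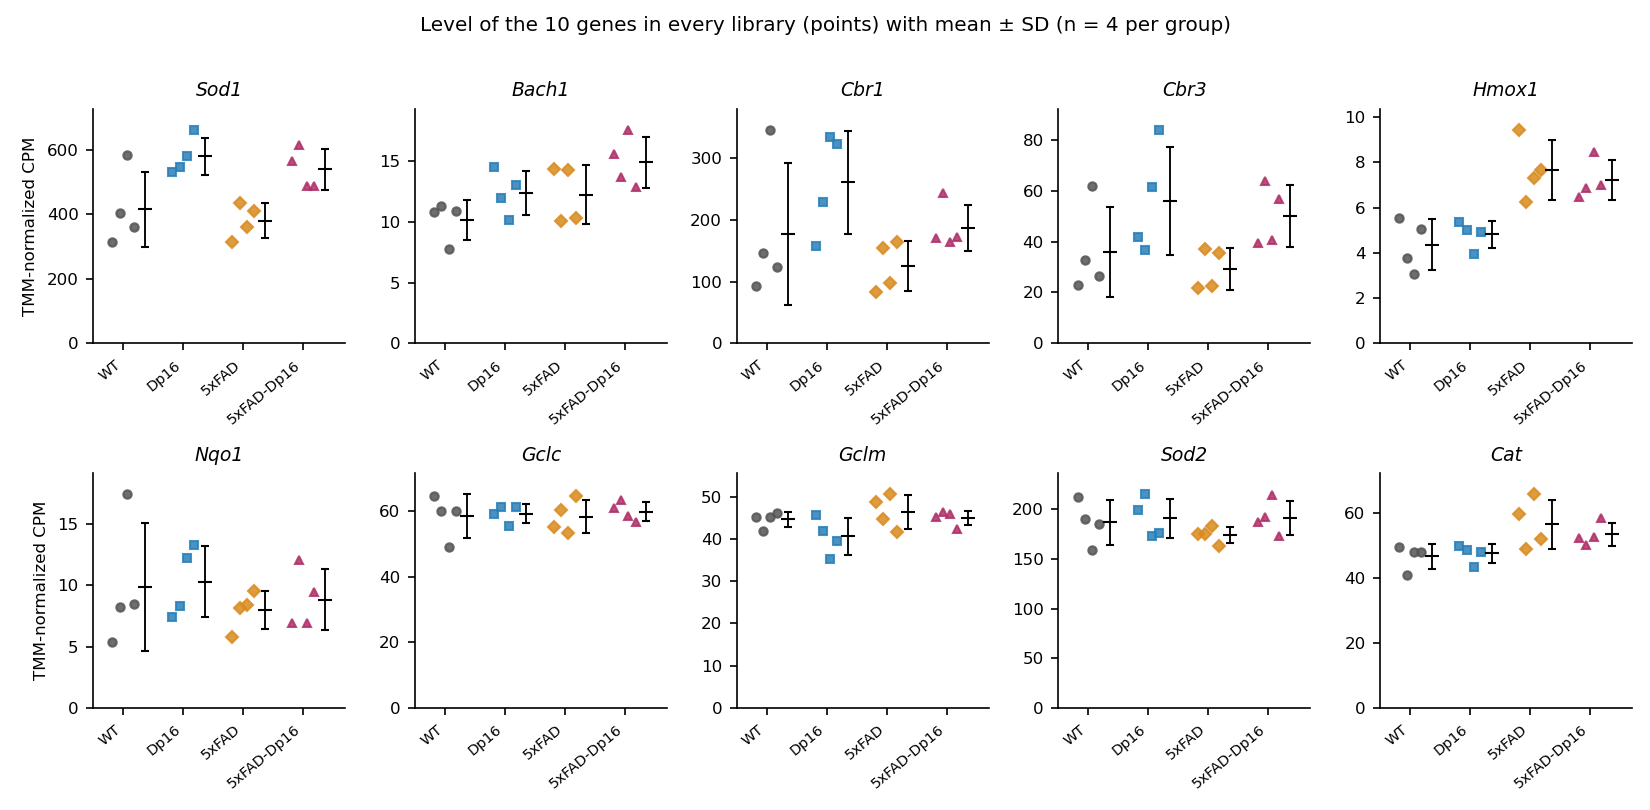
TMM-normalized CPM (vertical axes, starting at 0) of the 10 genes in each of the 16 libraries (points) by genotype, with the mean and SD of 4 libraries beside them. Hmox1 was the one gene without overlap between the 8 transgenic and the 8 other libraries, and wild-type replicate 3 stood at 582 CPM for Sod1, among the Dp16-carrying libraries.

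Library totals ran from 16874481 to 22912168 counts. The 16 libraries were not alike in the balance of long and short genes, which was measured as a length slope: the change in log2 CPM, relative to the other libraries, per doubling of gene length. Slopes ran from −0.439 in wild-type replicate 3 and −0.181 and −0.171 in Dp16 replicates 4 and 3 to 0.281 in wild-type replicate 1. Marker sums of neurons and glia were above 0 in every library. That of excitatory neurons was lowest in wild-type replicate 3, at 2506 CPM against up to 7425 in its group. The sum of inhibitory neuron markers was highest in the same library, at 1604 CPM against 1087 at the lowest in its group. Sums of 8 choroid plexus markers, from a neighbouring tissue, reached 1571 CPM in the Dp16 and 2997 in the 5xFAD-Dp16 libraries. They reached 611 and 841 at most in the wild-type and 5xFAD libraries, with all group ranges overlapping. Of these markers, Clic6 and Kcne2 lie in the triplicated segment themselves. The part of these marker sums in the results was not tested.

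Per gene length, Sod1 was by far the most abundant of the 10 transcripts. Its median over the 16 libraries was 775 RPKM, with a range of 497 to 1015, and its mean ranked 62 among all genes. Cbr1 followed with a median of 136 RPKM (68.8 to 257), then Cbr3 with 33.4 (19.0 to 70.5), Sod2 with 31.8 (23.2 to 37.5), Cat with 19.1 (15.6 to 25.1) and Gclc with 17.7 (12.3 to 19.3). The lowest were Gclm with 8.03 RPKM (5.95 to 9.06), Nqo1 with 5.42 (3.51 to 9.62), Hmox1 with 3.74 (1.68 to 6.18) and the repressor Bach1 with 2.13 (1.13 to 3.04). The ranges of Sod1 and Cbr1 did not overlap, nor did those of Gclc and Gclm. The ranges of each of the other neighbours in this order overlapped. In wild-type cortex the means were 29.1 ± 11.4 RPKM for Cbr3 and 31.3 ± 5.74 for Sod2, and 17.4 ± 1.83 for Cat and 16.8 ± 3.06 for Gclc (SD, n = 4), so the order within these 2 pairs was not resolved.

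Sod1 lies at chr16:90220754-90226329 on the plus strand (GRCm38, GENCODE M21). Its levels were 316, 404, 582 and 361 CPM in the wild-type libraries and 531, 546, 581 and 661 in the Dp16 libraries, and 315, 436, 360 and 410 in the 5xFAD and 567, 616, 487 and 488 in the 5xFAD-Dp16 libraries. All but 1 of the libraries without Dp16, 7 of 8, were below the lowest Dp16-carrying library, and the exception was wild-type replicate 3, the library of lowest length slope. Group means were 416 ± 117, 580 ± 58.1, 380 ± 53.7 and 539 ± 63.4 CPM in the same order (SD, n = 4).

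With Dp16, Sod1 was 0.49 ± 0.13 higher on the log2 scale, with a 95% interval of 0.21 to 0.77 that held the log2 copy ratio of 0.585, and an edgeR adjusted p of 0.495. The difference was 0.48 ± 0.19 without the transgenes and 0.51 ± 0.19 with them. In 5xFAD-Dp16 against 5xFAD the groups did not overlap for Sod1, which held for 1.73% of all genes tested, while wild-type and Dp16 overlapped. Without wild-type replicate 3, Sod1 was called for Dp16 at 0.62 ± 0.09 (edgeR adjusted p = 0.00454), where 0.279% of all genes were called. Of 25 alternative fits, 3 called Sod1 with Dp16. With the transgenes Sod1 stood at −0.12 ± 0.13, which did not pass the test.

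Ratios between genes within a library were set beside these levels, because they cancel the scaling by library total. They do not cancel differences in the balance of long and short genes. Sod1 has 641 bases, Cat 2613 and Sod2 5861. The ratio of Sod1 to Ccs, which encodes the chaperone that loads copper onto SOD1, was 33.8 ± 3.79 in the wild-type and 49.2 ± 4.95 in the Dp16 libraries, and 29.2 ± 2.29 in the 5xFAD and 47.0 ± 5.56 in the 5xFAD-Dp16 ones (RPKM ratio, SD, n = 4). The 8 Dp16-carrying libraries lay between 42.5 and 54.4, and the 8 others between 26.4 and 39.2, so the groups did not overlap. How often ratios of other gene pairs separate these libraries was not tested. The difference was 1.53-fold (exact two-sided permutation test, p = 0.000155, the smallest that 8 against 8 libraries allow; adjusted p = 0.00186 over 12 ratio tests). Wild-type replicate 2 was the highest of the libraries without Dp16, and wild-type replicate 3, whose Sod1 level was among those of the Dp16-carrying libraries, lay with the other wild-type libraries in this ratio. Ccs itself stood at −0.12 ± 0.13 with Dp16.

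The ratio of Sod1 to Cat, the dismutase to the enzyme that removes its product, was 36.6 ± 10.5 in the wild-type and 49.9 ± 6.36 in the Dp16 libraries, and 28.1 ± 7.31 in the 5xFAD and 41.5 ± 7.05 in the 5xFAD-Dp16 ones. It stood 1.45-fold higher with Dp16, and the exact permutation test gave an adjusted p of 0.055. The ratio of Sod1 to Sod2 was 21.1 ± 8.68, 28.1 ± 5.25, 20.01 ± 3.31 and 25.9 ± 3.698 in the same order, or 1.34-fold higher with Dp16 (exact permutation adjusted p = 0.0662). Both ratios overlapped between the libraries with and without Dp16. None of the 3 ratios passed for the transgenes (exact permutation adjusted p of 0.531 for Ccs, 0.244 for Cat and 0.757 for Sod2).

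**Figure D2:**
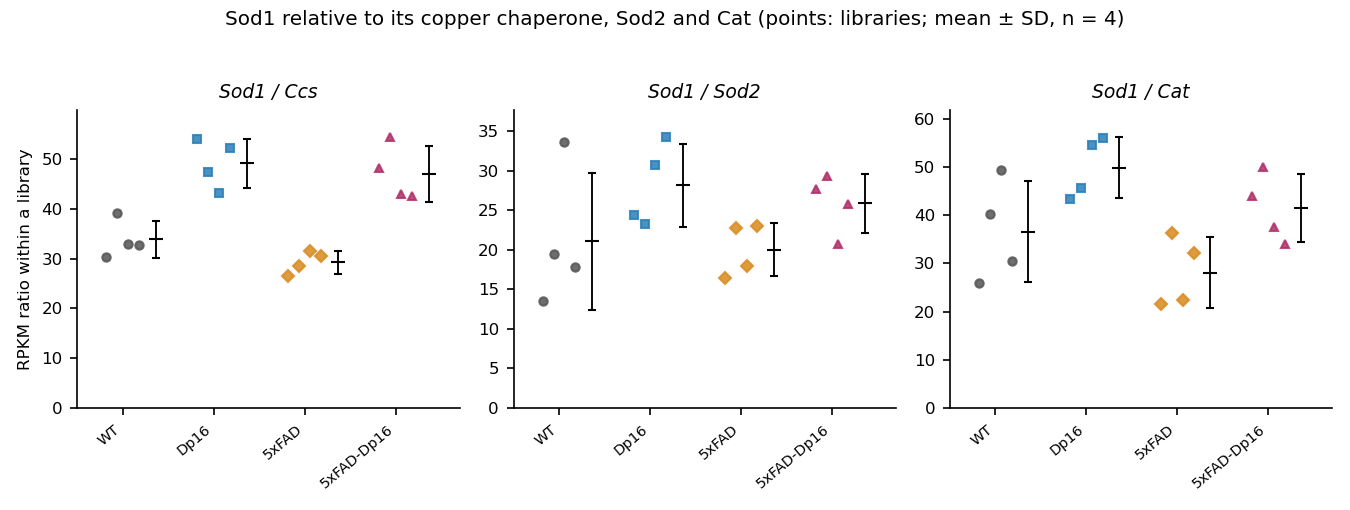
RPKM of Sod1 divided by that of Ccs, Sod2 or Cat within each library (points; vertical axes start at 0), with the mean and SD of 4 libraries per group. For Ccs all 8 Dp16-carrying libraries lie above all 8 others, and for Sod2 and Cat the libraries overlap.

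Sod2 lies at chr17:13006846-13040063 on the plus strand. Its levels were 213, 191, 159 and 185 CPM in the wild-type libraries and 199, 215, 173 and 176 in the Dp16 libraries, and 175, 176, 184 and 163 in the 5xFAD and 187, 192, 214 and 173 in the 5xFAD-Dp16 libraries. All 4 groups overlapped. Sod2 stood at 0.08 ± 0.09 with Dp16 and −0.05 ± 0.09 with the transgenes. Part of its annotated transcripts is shared with Rps6ka2 (98.2% identity over 3110 bases), and the sources used here do not give how such reads were split.

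Cat lies at chr2:103453849-103485160 on the minus strand. Its levels were 49.6, 40.8, 48.0 and 48.1 CPM in the wild-type libraries and 49.9, 48.7, 43.4 and 48.0 in the Dp16 libraries, and 59.6, 49.0, 65.7 and 51.8 in the 5xFAD and 52.3, 50.2, 52.7 and 58.3 in the 5xFAD-Dp16 libraries. Of the 8 transgenic libraries, 7 were above the highest other library, the exception being 5xFAD replicate 2. Cat stood at 0.22 ± 0.09 with the transgenes (edgeR adjusted p = 0.40) and at −0.02 ± 0.09 with Dp16. The 5xFAD-Dp16 libraries did not overlap with Dp16 or with wild-type for Cat, which held upwards for 2.21% and 2.34% of all genes tested.

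Among the 5 other genes that serve the superoxide dismutases, edgeR called 0 with Dp16 (0.0968% of all genes) and 0 with the transgenes (2.18%). DESeq2 and limma also called 0 of these 5 genes, and 0 had an unadjusted p under 0.05. Their medians were −0.01 and 0.02, beside −0.02 and −0.02 over all genes tested. With Dp16, the 2 of smallest p were the copper importer gene Slc31a1 (0.16 ± 0.12) and Ccs. With the transgenes they were Park7, which encodes the protein DJ-1 (−0.19 ± 0.15), and the copper chaperone gene Atox1 (−0.27 ± 0.25), and both values turned positive without the 3 libraries of lowest length slope, at 0.076 and 0.25.

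Bach1 lies at chr16:87698945-87733346 on the plus strand, 2487407 bases before Sod1. It had 128 to 347 counts per library. Its levels were 10.8, 11.3, 7.73 and 10.9 CPM in the wild-type libraries and 14.5, 11.95, 10.2 and 12.99 in the Dp16 libraries, and 14.3, 10.1, 14.3 and 10.3 in the 5xFAD and 15.6, 13.6, 17.5 and 12.8 in the 5xFAD-Dp16 libraries. The lowest value was that of wild-type replicate 3 and the highest that of 5xFAD-Dp16 replicate 3, and libraries with and without Dp16 overlapped. With Dp16, Bach1 stood at 0.28 ± 0.13 (edgeR adjusted p = 1). Its 95% interval reached from 0.999-fold to 1.48-fold, so it ended just under the copy ratio of 1.5. In the separate comparisons it held 1.5, at 0.923 to 1.61-fold in Dp16 against wild-type and 0.92 to 1.60-fold in 5xFAD-Dp16 against 5xFAD. In the fit with a length slope covariate the interval was 1.04 to 1.56-fold in Dp16 against wild-type, 0.993 to 1.47-fold in 5xFAD-Dp16 against 5xFAD and, over both, 1.08 to 1.43-fold (edgeR adjusted p = 0.155).

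Bach1 stood at 0.27 ± 0.13 with the transgenes (edgeR adjusted p = 0.631), about as far as with Dp16. In 5xFAD-Dp16 against wild-type, which differ in both, Bach1 stood at 0.55 ± 0.19 (edgeR adjusted p = 0.492) with no overlap between the groups, which held upwards for 2.34% of all genes tested. The interaction of the 2 genotypes was −0.01 ± 0.26 for Bach1.

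Of 12 other regulators of the NRF2 and BACH1 pathway, edgeR called 0 with Dp16 (0 with an unadjusted p under 0.05) and 2 with the transgenes, both higher. Over all genes, edgeR called 0.0968% with Dp16 and 2.18% with the transgenes, shares that stand beside each of the lists below too. At an unadjusted p under 0.05, in either direction, the shares of all genes were 4.29% and 8.48%. DESeq2 and limma made the same calls in this and each of the lists below. Nfe2l2, which encodes the activator NRF2, had means of 15.4 ± 3.3 CPM in the wild-type and 17.5 ± 2.26 in the Dp16 libraries, and 25.8 ± 6.68 in the 5xFAD and 24.3 ± 3.43 in the 5xFAD-Dp16 ones. It rose with the transgenes by 0.59 ± 0.13 (edgeR adjusted p = 0.0227) and stood at 0.06 ± 0.13 with Dp16. Trim21, which encodes an antibody-binding ubiquitin ligase also induced by interferon, rose with the transgenes by 0.94 ± 0.17 (edgeR adjusted p = 0.00395). The list's median was 0.13 with the transgenes and 0.04 with Dp16, beside −0.02 and −0.02 over all genes tested. With Dp16, Bach2, a relative of Bach1, stood at −0.37 ± 0.24.

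The ratio of repressor to activator transcript, Bach1 to Nfe2l2, was 0.285 ± 0.0564 in the wild-type and 0.299 ± 0.0391 in the Dp16 libraries, and 0.203 ± 0.0161 in the 5xFAD and 0.263 ± 0.0602 in the 5xFAD-Dp16 ones (RPKM ratio, SD, n = 4). It stood 0.791-fold with the transgenes (exact two-sided permutation test, p = 0.0221, adjusted p = 0.0662) and 1.16-fold with Dp16 (adjusted p = 0.244). Neither passed after adjustment. The 5xFAD libraries, at 0.188 to 0.225, did not overlap with wild-type (0.243 to 0.368), while 5xFAD-Dp16 (0.205 to 0.344) overlapped with Dp16 (0.255 to 0.344). How often other ratios separate in this way was not tested.

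Hmox1, the known target of both factors, lies at chr8:75093621-75100589 on the plus strand. Its levels were 5.52, 3.77, 3.08 and 5.07 CPM in the wild-type libraries and 5.38, 5.01, 3.97 and 4.92 in the Dp16 libraries, and 9.43, 6.26, 7.33 and 7.68 in the 5xFAD and 6.46, 6.89, 8.48 and 7.01 in the 5xFAD-Dp16 libraries. The 8 transgenic libraries lay between 6.26 and 9.43 and the 8 others between 3.08 and 5.52, so they did not overlap, which held upwards for 0.826% of all genes tested. Means were 4.36 ± 1.13, 4.82 ± 0.602, 7.68 ± 1.32 and 7.21 ± 0.882 CPM in the order of groups (SD, n = 4).

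With the transgenes Hmox1 rose by 0.70 ± 0.15 (95% interval 0.38 to 1.02, edgeR adjusted p = 0.0178), the 1 call among the 10 genes, where 2.18% of all genes were called. At an unadjusted p under 0.05, Hmox1 and Cat were higher, where 5.99% of all genes were. The difference of Hmox1 was 0.82 ± 0.21 in 5xFAD against wild-type (edgeR adjusted p = 0.0869), 0.58 ± 0.21 in 5xFAD-Dp16 against Dp16 (adjusted p = 0.747) and 0.72 ± 0.21 in 5xFAD-Dp16 against wild-type (adjusted p = 0.288), comparisons that share groups with one another. With Dp16 it stood at 0.02 ± 0.15, and the interaction was −0.24 ± 0.30. Hmox1 was called in 23 of 25 alternative fits, with adjusted p from 0.000254 to 0.0698. The exceptions were the fits without 5xFAD-Dp16 replicate 3 (0.64 ± 0.16, edgeR adjusted p = 0.0629) and without the 3 libraries of lowest length slope (0.59 ± 0.16, edgeR adjusted p = 0.0698).

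The 12 microglial markers also rose in 12 of 12 with the transgenes. Their summed level was 2389 ± 359 CPM in the 5xFAD and 1555 ± 474 in the 5xFAD-Dp16 libraries, against 753 ± 124 in the wild-type and 678 ± 57.3 in the Dp16 ones. In bulk cortex, more cells of a type cannot be told apart from more RNA per cell. Astrocyte marker sums were 5444 to 8274 and 4586 to 5940 CPM in 5xFAD and 5xFAD-Dp16, against 3025 to 5304 and 3290 to 4478 in wild-type and Dp16. Sums of blood-derived macrophage markers overlapped between all groups, at 4.07 to 9.69 CPM, and no marker of these lists was at 0 in all libraries. Relations to the microglial sum were read in sets of 8 libraries. Each set pooled 2 genotype groups, and differences between group means were not taken out. Within the 8 transgenic libraries no relation of Hmox1 to the microglial sum was detectable (Pearson r = −0.134, exact permutation p = 0.755; Spearman rho = −0.0238, p = 0.977; r = 0.252 with the 2 most distant libraries left out). Within the 8 other libraries r was −0.556 (exact permutation p = 0.149, rho = −0.357, p = 0.389), and 0.00546 without the 2 farthest. These were 2 of 6 such relations, which also covered Cat and Bach1, and the smallest adjusted p was 0.214. Between genotypes, Hmox1 and the microglial sum were both higher in each of the 8 transgenic libraries than in any of the 8 others. The part of cell composition in the rise of Hmox1 was not tested.

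**Figure D3:**
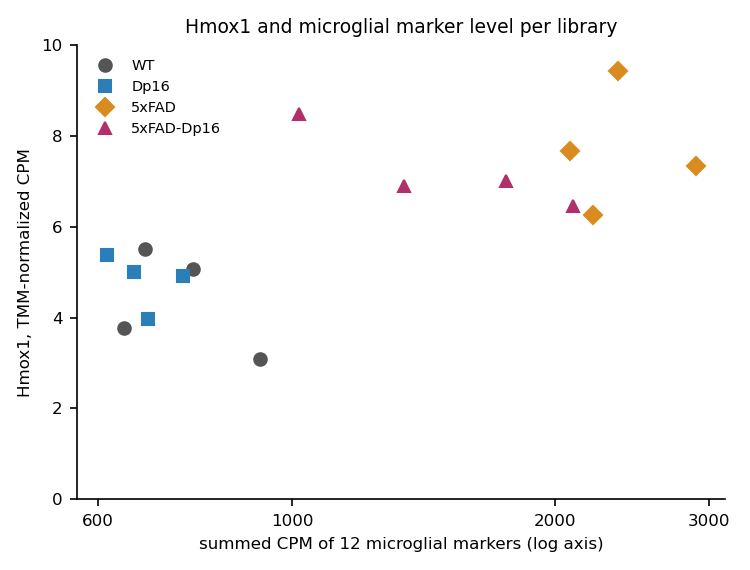
Hmox1 in TMM-normalized CPM (vertical axis, from 0) against the summed CPM of 12 microglial markers (horizontal log axis) in each of the 16 libraries, by genotype. The transgenic libraries lie at 6.26 to 9.43 CPM of Hmox1 over microglial sums of 1018 to 2900, and the others at 3.08 to 5.52 over sums of 614 to 919.

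Nqo1 lies at chr8:107388225-107403206 on the minus strand. Its levels were 5.41, 8.22, 17.4 and 8.5 CPM in the wild-type libraries and 7.4, 8.29, 12.3 and 13.4 in the Dp16 libraries, and 5.81, 8.14, 8.38 and 9.57 in the 5xFAD and 6.91, 12.1, 6.94 and 9.44 in the 5xFAD-Dp16 libraries. The highest was wild-type replicate 3, followed by Dp16 replicates 4 and 3, the 3 libraries of lowest length slope. Nqo1 stood at 0.11 ± 0.23 with Dp16 and −0.27 ± 0.23 with the transgenes, and the second value turned to 0.18 without those 3 libraries. No difference of Nqo1 was larger than the spread between libraries.

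Gclc and Gclm, which encode the subunits of the glutathione-synthesis enzyme, did not pass in any comparison. Gclc, at chr9:77754535-77794485 on the plus strand, had means of 58.4 ± 6.67, 59.2 ± 2.81, 58.3 ± 5.06 and 59.9 ± 2.81 CPM in wild-type, Dp16, 5xFAD and 5xFAD-Dp16 (SD, n = 4). It ranged from 49.0 in wild-type replicate 3 to 64.6 in wild-type replicate 1, and stood at 0.03 ± 0.08 with Dp16 and 0.01 ± 0.08 with the transgenes, a value whose sign changed between settings. Gclm, at chr3:122245557-122270732 on the plus strand, had means of 44.7 ± 1.84, 40.7 ± 4.3, 46.5 ± 4.03 and 45.0 ± 1.77 CPM. It ranged from 35.4 in Dp16 replicate 3 to 50.6 in 5xFAD replicate 3, and stood at −0.09 ± 0.08 with Dp16 and 0.10 ± 0.08 with the transgenes. The 95% intervals with Dp16 were −0.14 to 0.21 for Gclc and −0.27 to 0.09 for Gclm. The ratio of Gclc to Gclm passed in neither contrast (exact permutation adjusted p = 0.244 with Dp16 and 0.384 with the transgenes). The pseudogene Gm6061 overlaps Gclm on the same strand over 492 bases and had 7.733% as many counts.

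Cbr1 and Cbr3 lie 72709 bases apart, at chr16:93605853-93610505 and chr16:93683215-93690990, both on the plus strand. Cbr1 levels were 92.9, 145, 345 and 124 CPM in the wild-type libraries and 158, 229, 334 and 323 in the Dp16 libraries, and 82.9, 154, 97.5 and 165 in the 5xFAD and 170, 243, 164 and 172 in the 5xFAD-Dp16 libraries. The highest was wild-type replicate 3, and 6 of the 8 libraries without Dp16 were below the lowest Dp16-carrying one. Cbr3 levels were 22.9, 32.8, 61.8 and 26.3 CPM in the wild-type libraries and 41.9, 36.8, 61.4 and 83.8 in the Dp16 libraries, and 21.6, 37.2, 22.7 and 35.5 in the 5xFAD and 39.2, 63.9, 40.4 and 56.8 in the 5xFAD-Dp16 libraries. For Cbr3, too, 6 of the 8 libraries without Dp16 were below the lowest Dp16-carrying one, and 5xFAD-Dp16 did not overlap with 5xFAD (upwards, 1.73% of all genes tested).

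With Dp16, Cbr1 stood at 0.57 ± 0.26 (edgeR adjusted p = 1) and Cbr3 at 0.70 ± 0.23 (edgeR adjusted p = 0.808). Their 95% intervals, 1.01 to 2.19-fold and 1.16 to 2.29-fold, held the copy ratio of 1.5. Without wild-type replicate 3 the values were 0.91 ± 0.18 (edgeR adjusted p = 0.037) and 0.96 ± 0.17 (edgeR adjusted p = 0.0211). Both were called in that fit, where 0.279% of all genes were. Of 25 alternative fits, 3 called Cbr1 and 3 called Cbr3 with Dp16. With the transgenes Cbr1 stood at −0.50 ± 0.27 (edgeR adjusted p = 0.662), which became −0.21 ± 0.17 without wild-type replicate 3 and 0.01 ± 0.16 without the 3 libraries of lowest length slope. Cbr3 stood at −0.24 ± 0.23 with the transgenes, and at 0.26 without those 3 libraries. The ratio of Cbr1 to Cbr3 was 4.45 ± 0.612, 4.56 ± 1.14, 4.00 ± 0.317 and 3.60 ± 0.531 in the order of groups and passed in neither contrast (exact permutation adjusted p = 0.627 with Dp16 and 0.152 with the transgenes). The transcripts of Cbr1 and Cbr3 share 77.6% identity over 839 bases.

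Counted over the 10 genes, edgeR called 0 with Dp16, where 0.0968% of all genes tested were called, and DESeq2 and limma also called 0. At an unadjusted p under 0.05, 3 of the 10 were higher (Sod1, Cbr1 and Cbr3), where 2.02% of all genes were, and 0 of the 10 separated the 8 Dp16-carrying from the 8 other libraries without overlap, where 0.125% of all genes did upwards. In Dp16 against wild-type edgeR called 0 of the 10 (0.0057% of all genes), 1 was higher at an unadjusted p under 0.05 (Sod1; 1.29% of all genes) and 0 did not overlap upwards (0.98% of all genes). In 5xFAD-Dp16 against 5xFAD it called 0 (0.0057% of all genes), and 2 were higher unadjusted (Sod1 and Cbr3; 1.63% of all genes). DESeq2 and limma called 0 in both.

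For the transgenes alone, in 5xFAD against wild-type, edgeR called 0 of the 10 (1.52% of all genes), DESeq2 called 1, Hmox1, and limma 0. Hmox1 and Cat were higher unadjusted, as were 5.2% of all genes, and 1 of the 10, Hmox1, did not overlap (3.67% of all genes). In 5xFAD-Dp16 against Dp16 edgeR and DESeq2 called 0 (0.387% of all genes with edgeR), and 1 was higher unadjusted (Hmox1; 3.18% of all genes). In 5xFAD-Dp16 against wild-type both called 0 (0.501% of all genes with edgeR), and 2 were higher unadjusted (Hmox1 and Bach1; 3.65% of all genes). Neither the interaction (0 of 10 called, 0% of all genes; 0 of 10 unadjusted, 1.36% of all genes) nor females against males (0 of 10 called, 0.0456% of all genes; 0 of 10 unadjusted, 2.93% of all genes) singled out a gene, with DESeq2 calling 0 in each. Interaction values lay between −0.24 for Hmox1 and 0.18 for Cbr3, and sex differences between −0.17 for Cbr3 and 0.12 for Cat.

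**Figure D4:**
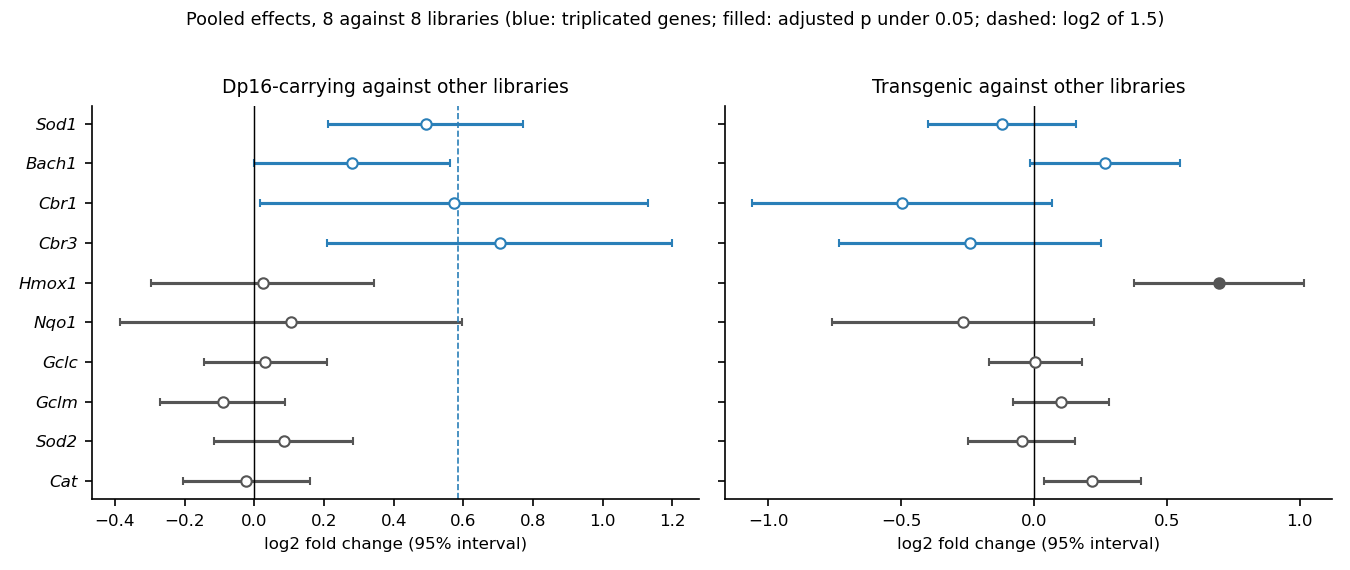
Log2 fold changes with 95% intervals of the 10 genes for Dp16 (8 against 8 libraries, left) and for the transgenes (8 against 8 libraries, right). Blue genes are triplicated, filled points have an adjusted p under 0.05, and the dashed line stands at the log2 copy ratio of 0.585. Hmox1 with the transgenes is the one filled point, and the interval of Bach1 with Dp16 ends at 0.56.

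Within the triplicated segment (chr16:75540514-97962622) the 4 genes were spread over the ranks. The 109 segment genes tested had a median of 0.56 with Dp16, and 99 were above 0. Ordered from the largest value, Cbr3 ranked 20, Cbr1 53, Sod1 71 and Bach1 88 of 109. In Dp16 against wild-type the ranks were 36, 52, 71 and 88, and in 5xFAD-Dp16 against 5xFAD 18, 51, 68 and 89, comparisons that share no library.

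Neighbours of the 4 genes were read for comparison. On either side of Sod1, Tiam1, an activator of RAC1, stood at 0.64 ± 0.19 with Dp16 and the uncharacterized Gm49708 at −0.52 ± 0.62, and Scaf4, on the opposite strand and overlapping Sod1 by 650 bases, stood at 0.25 ± 0.18. Beside Bach1, Map3k7cl stood at −0.16 ± 0.28 and 2810407A14Rik at −0.01 ± 0.23, both below Bach1 itself. Beside Cbr1 and Cbr3, the methyltransferase gene Setd4 stood at 0.70 ± 0.20 and Dop1b at 0.44 ± 0.25. Between them Gm5678, a gene of few counts described at the end, stood at 1.96 ± 0.43. None of these neighbours was called.

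The levels of several of the 10 genes followed the length slope of the libraries. Over the 16 libraries Pearson's r with the slope was −0.884 for Nqo1 (permutation p = 1e-05, the smallest that 100000 resamples can give; Spearman rho = −0.738, p = 0.00171; r = −0.761 with the 2 most distant slopes left out). For Cbr1 it was −0.833 (permutation p = 4e-05; rho = −0.782, p = 0.00065; r = −0.775 without the 2 farthest), and for Cbr3 −0.714 (permutation p = 0.00175; rho = −0.656, p = 0.00713; r = −0.674). Sod2 (r = 0.62, permutation p = 0.00957; rho = 0.506, p = 0.0477) and Bach1 (r = 0.589, permutation p = 0.0156; rho = 0.474, p = 0.0648) went the other way, and for Sod2 r was 0.353 without the 2 farthest. Adjusted over the 10 genes, the Pearson p was 0.0001 for Nqo1, 0.0002 for Cbr1, 0.00583 for Cbr3, 0.0191 for Sod2 and 0.026 for Bach1. Nqo1, Cbr1, Cbr3 and Sod1, with lengths of 641 to 1553 bases, had negative values, while Bach1, Sod2 and Gclm, with 5589 to 5867 bases, had positive ones. The exception in length was Hmox1, with 1569 bases and r = 0.563 (permutation p = 0.0229; rho = 0.474, p = 0.0656; r = 0.426 without the 2 farthest). The slope is taken from the same counts, and what sets the libraries apart was not tested.

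For Sod1 the relation was read separately in the libraries with and without Dp16, each a pool of 2 genotype groups. Within the 8 Dp16-carrying libraries r with the slope was −0.873 (exact permutation p = 0.0058, adjusted p = 0.0193 over 20 relations; rho = −0.929, p = 0.00223; r = −0.854 without the 2 farthest). Within the 8 others it was −0.977 (exact permutation p = 0.000198, adjusted p = 0.00198; rho = −0.881, p = 0.00724; r = −0.911). Cbr1 gave −0.953 (exact permutation p = 0.000198, adjusted p = 0.00198; rho = −0.929, p = 0.00223; r = −0.901) and −0.948 (exact permutation p = 0.00151, adjusted p = 0.00755; rho = −0.857, p = 0.0107; r = −0.83) within the same sets of 8. In the fit with the slope as a covariate, Sod1 rose with Dp16 by 0.49 ± 0.05, nearly the same value as without the covariate, with a smaller error (edgeR adjusted p = 2.65e-06).

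**Figure D5:**
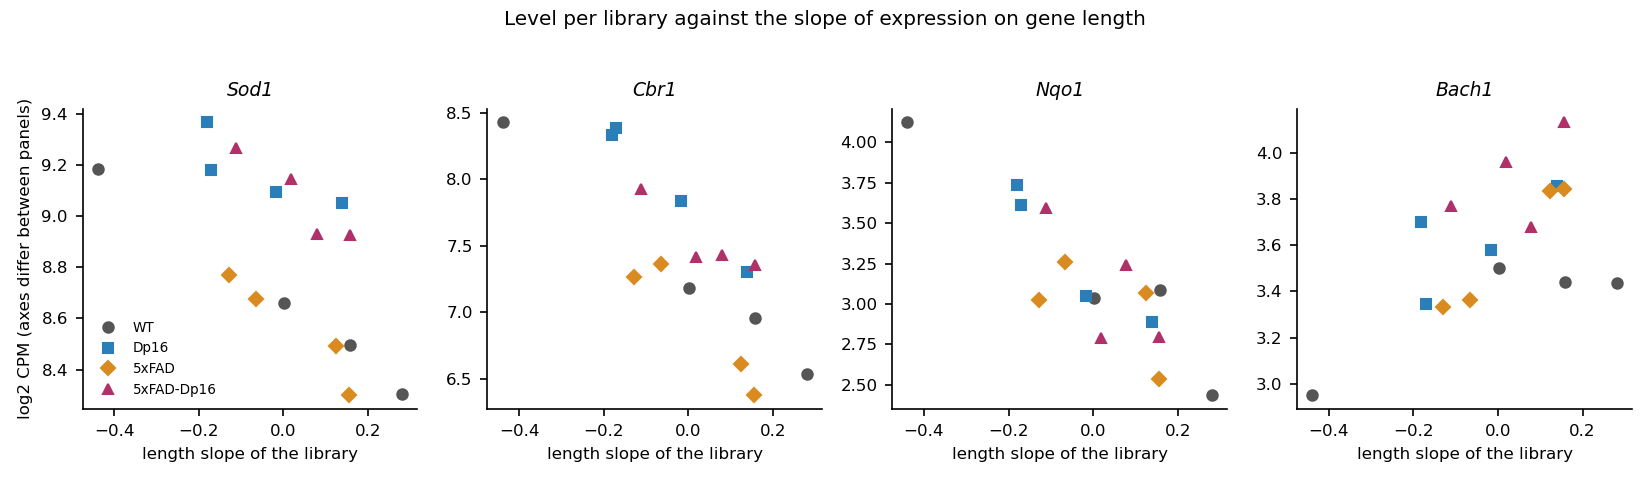
Log2 CPM of Sod1, Cbr1, Nqo1 and Bach1 (vertical axes, which differ between panels) against the length slope of each of the 16 libraries, by genotype. Sod1, Cbr1 and Nqo1 decline with the slope and Bach1 increases, and for Sod1, over the slopes that the libraries with and without Dp16 share (−0.181 to 0.157), the Dp16-carrying libraries lie above the others.

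In that fit 3 of the 10 genes were called with Dp16, where 1.03% of all genes were: Sod1, Cbr1 (0.60 ± 0.06, edgeR adjusted p = 2.69e-06) and Cbr3 (0.70 ± 0.09, edgeR adjusted p = 0.000135). Over their 25 alternative fits the adjusted p ran from 2.65e-06 to 0.956 for Sod1, from 2.69e-06 to 1 for Cbr1 and from 0.000135 to 1 for Cbr3, and each was above 0 in all 25. Sod1 and Cbr1 were called in Dp16 against wild-type (0.251% of all genes), and Sod1, Cbr1 and Cbr3 in 5xFAD-Dp16 against 5xFAD (0.695% of all genes). With the transgenes 2 of the 10 were called, where 5.99% of all genes were: Hmox1, higher (0.65 ± 0.12, edgeR adjusted p = 0.00123), and Cbr1, lower (−0.25 ± 0.06, edgeR adjusted p = 0.0207). Cat stood at 0.20 ± 0.06 (edgeR adjusted p = 0.0565) and was not called.

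The wider pathway was read from lists of genes with known roles. Of 14 genes of glutathione synthesis and use, edgeR called 0 with Dp16 (0 unadjusted) and 0 with the transgenes (1 unadjusted). The cystine importer gene Slc7a11 stood at 0.41 ± 0.15 with the transgenes (edgeR adjusted p = 0.307), and Chac2, which encodes a glutathione-degrading enzyme, at −0.55 ± 0.30. With Dp16, the glutaredoxin gene Glrx2 stood at 0.09 ± 0.12 and Gpx8 at 0.19 ± 0.25. The list's median was −0.10 with the transgenes and −0.0037 with Dp16.

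Of 13 genes of the thioredoxin and peroxiredoxin system, edgeR called 0 with Dp16 (0 unadjusted). With the transgenes, where 2.18% of all genes were called, it called 1. Prdx6, which encodes a peroxiredoxin that reduces phospholipid hydroperoxides, rose by 0.42 ± 0.09 (edgeR adjusted p = 0.0207), from 288 ± 27 CPM in wild-type and 307 ± 27.5 in Dp16 to 427 ± 44.6 in 5xFAD and 373 ± 36.6 in 5xFAD-Dp16. Prdx6 overlapped between the transgenic and the other libraries, since 5xFAD-Dp16 replicate 3 stood at 320 CPM and Dp16 replicate 3 at 342. The list's median was −0.10 with the transgenes and −0.02 with Dp16.

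Of 20 genes of carbonyl reduction and detoxification, edgeR called 0 with Dp16 (0 unadjusted). With the transgenes, where 2.18% of all genes were called, it called 2, both higher. They were Aldh3b1, an aldehyde dehydrogenase gene (0.68 ± 0.12, edgeR adjusted p = 0.0038), and Ephx1, the microsomal epoxide hydrolase gene (0.42 ± 0.10, edgeR adjusted p = 0.0358). Of 25 alternative fits, Ephx1 was not called in 15, Prdx6 in 9 and Nfe2l2 in 8, while Trim21 and Aldh3b1 were called in 25 of 25. The list's median was −0.01 with the transgenes and 0.02 with Dp16.

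Genes of the NADPH oxidase, the phagocyte enzyme that makes superoxide, were read in the same way. Cybb, the catalytic subunit gene, rose with the transgenes by 3.48 ± 0.45 (edgeR adjusted p = 0.000266), from 0.33 ± 0.329 CPM in wild-type and 0.577 ± 0.545 in Dp16 to 4.89 ± 1.43 in 5xFAD and 5.35 ± 2.49 in 5xFAD-Dp16. Cyba rose by 1.32 ± 0.24, Rac2 by 1.24 ± 0.19, Ncf1 by 1.20 ± 0.27 and Ncf4 by 1.04 ± 0.22, with edgeR adjusted p of 0.000994 to 0.0256. Ncf1 was not called in 8 of the 25 alternative fits and Ncf4 in 4. These genes are expressed by microglia, whose marker sums were higher in the same libraries, and the part of cell number was not tested. With Dp16, Rac2 stood at −0.56 ± 0.19 (edgeR adjusted p = 0.82) and Ncf4 at −0.53 ± 0.22 (edgeR adjusted p = 1). The 12 microglial markers were also below 0 with Dp16 in 12 of 12, with a median of −0.38. Of these, 7 had an unadjusted p under 0.05, where 2.27% of all genes were lower, and edgeR called 0. Their median was −0.14 in Dp16 against wild-type, with 0 lower unadjusted, where 0.906% of all genes were. In 5xFAD-Dp16 against 5xFAD it was −0.54, with 9 lower unadjusted, where 1.97% of all genes were. The 6 NADPH oxidase genes tested had medians of −0.12 and −0.62 in the same 2 comparisons. Of these genes, 0 and 3 were lower unadjusted, beside the same shares of all genes.

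Of 12 heme and iron genes, edgeR called 0 with Dp16 (0 unadjusted) and 0 with the transgenes (2 unadjusted). The ferritin light chain gene Ftl1 stood at 0.36 ± 0.11 with the transgenes (edgeR adjusted p = 0.165) and −0.19 ± 0.11 with Dp16, the transferrin receptor gene Tfrc at 0.25 ± 0.10 with the transgenes, and the iron exporter gene Slc40a1 at −0.44 ± 0.25 with Dp16. Of 7 tested genes of NADPH supply, edgeR called 0 with Dp16 (0 unadjusted) and 0 with the transgenes (1 unadjusted). Pgd stood at 0.26 ± 0.12 and Me1 at 0.16 ± 0.09 with the transgenes, and the isocitrate dehydrogenase genes Idh2 and Idh1 at −0.15 ± 0.08 and −0.13 ± 0.14 with Dp16.

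The genes most like each of the 10 were those of highest Pearson r in log2 CPM over the 16 libraries, which share genotype, depth and length slope, among tested genes of mean log2 CPM 3 or more. For Sod1 they were Wrb (r = 0.97), Vps26c (0.969) and Mrpl39 (0.953), for Cbr1 Atp5o (0.989), N6amt1 (0.974) and Cryzl1 (0.974), and for Cbr3 Btg3 (0.959), Pcp4 (0.948) and Atp5j (0.943). All 9 lie in the triplicated segment. For Bach1 they were Usp25 (0.857), also in the segment, Mtr (0.83) and Maob (0.823). For Hmox1 they were Cebpa (0.91), Zc3hav1 (0.899) and Dap (0.89), and for Cat Sgpl1 (0.88), the activator gene Nfe2l2 (0.874) and Elovl5 (0.865). For Nqo1 they were Pno1, Cnbp and Ntmt1. Among the 10 genes themselves, r was 0.909 between Sod1 and Cbr1, 0.917 between Cbr1 and Cbr3, 0.751 between Hmox1 and Cat, and 0.0202 between Sod1 and Bach1. With group and sex taken out these values were 0.924, 0.908, 0.573 and −0.687.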

How the data were processed

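Brain cortex of 16 mice was sequenced as poly-A RNA, in 4 genotype groups of 4. RNA was extracted with TRIzol and libraries were strand-specific and paired-end, per the labels' protocols. HISAT2 2.1.0, HTSeq 0.6.1 and SAMtools 1.5 were used with the build GRCm38, per the submitters' processing notes. They do not say if HTSeq counted by strand, so reads of Sod1 and of Scaf4, which overlap on opposite strands, may not be separable. The authors deposited a table of whole-number read counts per gene, which was tested here as deposited. The authors also deposited RPKM values, counts scaled by library size and gene length, which were used here for levels between genes and for ratios.

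Genes with low counts were removed (edgeR filterByExpr, minimum count 10), which left 17555 of 55385, and edgeR 4.0.16 was fitted to the 16 libraries with TMM factors, group and sex. Library totals of 16874481 to 22912168 gave 51 to 198 counts per library for Hmox1 and 128 to 347 for Bach1. Alternatives used DESeq2 1.42.0, limma 3.58.1 on log2(RPKM + 0.1) and log2(RPKM + 1), other scaling, no filter, other covariates, fewer groups and 16 fits each without 1 library. Tests were checked on simulated counts. Within groups, libraries differed beyond sampling noise (chi-square at least 16.6 times its degrees of freedom), so none was a repeated deposit.

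The 10 genes and the pathway and marker lists were chosen with earlier results of these data known. Named were the 10 genes, the genes called in each pathway list or otherwise the 2 of smallest p in the Dp16 and the transgene comparison, the tested neighbours of the triplicated genes, and the 3 genes most like each of the 10. Some items that this rule names are not reported here. The deposited counts rest on GENCODE M24, per the titles of the tables. Positions, overlaps and similar transcripts come from GENCODE M21, in which 241 genes of the table had no match. Promoter windows come from RefSeq, and the set of windows used held none matched to Hmox1 and Gclc.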

Additional observations from a re-analysis of the deposited data

Results flagged for a closer look

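Among 40 sets of 4 libraries (10 genes in 4 groups), 2 held a library far from its group, with a gap to the nearest library that, as a share of the group's range, exceeded Dixon's 95% critical value. Chance gives about 1 in 20 such sets. Bach1 in wild-type replicate 3 was the lowest of its group, at 7.73 CPM against 10.8 to 11.3 CPM in the other wild-type libraries, a gap of 0.859 of the range. Cbr1 in 5xFAD-Dp16 replicate 2 was the highest of its group, at 243 CPM against 164 to 172 CPM in the other 5xFAD-Dp16 libraries, a gap of 0.892 of the range.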

How the results depend on the processing

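Of 613 values of single genes under other settings, 567 kept their direction and their side of the threshold, as did 995 of 1056 in the fits without 1 library. Fits with the length slope as a covariate called 2 of the 10 genes in Dp16 against wild-type (0.251% of all genes tested), 3 in 5xFAD-Dp16 against 5xFAD (0.695%), 3 with Dp16 (1.03%), 2 in 5xFAD against wild-type (5.27%), 2 with the transgenes (5.99%) and 4 in 5xFAD-Dp16 against wild-type (2.04%). Without the low-count filter 2 were called with Dp16 (0.359% of all genes) and 2 with the transgenes (2.08%), and DESeq2 called 1 in 5xFAD against wild-type (2.68%). Without the 3 libraries of lowest length slope 1 was called with Dp16 (0.197%), 0 with the transgenes (2.53%) and 2 in 5xFAD-Dp16 against wild-type (0.956%). Leaving out 1 library gave 0 to 3 calls with Dp16, with 3 without wild-type replicate 3 (0.279% of all genes). With the transgenes it gave 0 to 1, with 0 without 5xFAD-Dp16 replicate 3 (2.02%). Over all genes, calls with Dp16 numbered 17, and 64 with DESeq2, 180 with the slope covariate, 111 without the filter and 4 to 50 without 1 library.

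Without the 3 libraries of lowest length slope the sign turned with the transgenes for Sod1 (0.068), Cbr1 (0.013, and 0.11 in 5xFAD against wild-type), Cbr3 (0.26), Nqo1 (0.18), Chac2 (0.075), Park7 (0.076), Atox1 (0.25) and Gclc (−0.024), and with Dp16 for Gpx8 (−0.052). Gclc with the transgenes also turned under DESeq2 (−0.0064), its size factors in edgeR (−0.0066) and the slope covariate (−0.0047), and Sod2 under limma (0.0025 and 0.0021 for the smaller and the larger pseudocount). Without 1 library, values with Dp16 ran from −0.041 to 0.097 for Hmox1, −0.0033 to 0.066 for Gclc and −0.056 to 0.014 for Cat. Values with the transgenes ran from −0.029 to 0.040 for Gclc and −0.39 to 0.013 for Atox1, and Cbr1 ran from −0.71 to 0.081 in 5xFAD against wild-type and −0.13 to 0.70 in 5xFAD-Dp16 against wild-type. Log2 ratios ran from 0.35 to 0.53 for Sod1 to Sod2 and 0.46 to 0.63 for Sod1 to Cat with Dp16, and from −0.18 to 0.016 for Sod1 to Sod2 and −0.42 to −0.29 for Bach1 to Nfe2l2 with the transgenes. The cause was not tested.

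With the replicate number as a block (replicate block), Hmox1 with the transgenes was 0.71 (edgeR adjusted p = 0.0233), and the calls among the 10 genes stayed at 0 with Dp16 and 1 with the transgenes. Deviations from group means correlated over 0.1 in 9 of 24 same-numbered pairs and in 25 of 72 other-numbered pairs. Mean r was 0.0625 (−0.354 to 0.514) and −0.0207 (−0.62 to 0.445), so pairing by number was not evident.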

Other observations

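Gm5678, which lies between Cbr1 and Cbr3 in the triplicated segment (chr16:93628097-93630451, GRCm38), was named as a neighbour and looked at further after its values were seen. Its transcript shares 90.6% identity with that of Cbr1 over 940 bases, so reads may be split between them. It had 17 to 44 counts in each of the 8 Dp16-carrying libraries and 1 to 12 in each of the 8 others. There was no overlap, which held upwards in CPM for 0.125% of all genes tested. The 8 others summed to 51 counts, so the size of the difference rests on few reads. The difference with Dp16 was 1.96 ± 0.43 on the log2 scale, or 3.89-fold with a 95% interval of 2.08 to 7.31 that lay above the copy ratio of 1.5, and it did not pass the test over all genes (edgeR adjusted p = 0.179). Per 100 counts of Cbr1, Gm5678 had 0.585 ± 0.231 counts in the Dp16-carrying and 0.265 ± 0.234 in the other libraries (SD, n = 8 each), with overlapping ranges of 0.312 to 1.03 and 0.0355 to 0.759.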
